A study of Homo sapiens with 4 samples.

Results

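The Rab GTPases measured here were the protein-coding genes of the deposited table whose symbol was RAB followed by a number and, in most, a letter. The table held 58 of them among 26733 genes, and 51 had enough counts to be tested, among 15910 genes tested. Polyadenylated RNA was sequenced from Jurkat cells, an established human line of T-cell acute lymphoblastic leukaemia, in 2 groups of 2 libraries each. The first group had received GNE987, a degrader that brings BET bromodomain proteins to the VHL ubiquitin ligase, at a labelled dose of 25 nmol (no volume is given) for 24 h. The second group was untreated, with the same labelled time, and no label names a vehicle. Every library came from this 1 cell line, with no genetic change named for either group.

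Rab proteins are small GTPases of the Ras superfamily that mark the membranes of the cell's compartments. Bound to GTP, a Rab recruits effectors such as tethers, motors and lipid kinases that move, dock or fuse vesicles, and guanine nucleotide exchange factors (GEFs) and GTPase-activating proteins (GAPs) switch it on and off. A geranylgeranyl lipid holds the Rab on the membrane, and GDP dissociation inhibitors (GDIs) carry it back through the cytosol. In T cells, Rab proteins direct the recycling of the antigen receptor to the synapse and the release of secretory granules.

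Total counts ranged from 16041022 to 17024157 in the treated libraries and from 18441248 to 18938465 in the untreated ones. No label says that the replicates were separate cultures, and p-values then describe the spread of these samples alone, which may be a technical one. Transcripts that BET inhibition is known to lower were far lower after treatment. MYC, a growth-promoting transcription factor, had 342 and 281 CPM (counts scaled to library size with TMM factors) in the untreated libraries and 15.6 and 15.6 CPM in the treated ones. LCK, the T-cell receptor kinase, had 951 and 783 CPM untreated and 60.1 and 62.1 CPM treated. Among 8 T-cell markers, 6 fell (75%, beside 37.2% of all genes) and 1 rose (12.5%, beside 34.4%). CD247, the zeta chain of the receptor, went from 232 and 195 CPM to 39.8 and 37.4 CPM, while CD7 went from 138 and 158 CPM to 201 and 231 CPM (its call ended with library size alone, adjusted p = 0.286, with no filter and without either treated library). The chain CD3E stayed abundant, with 507 and 639 CPM untreated and 717 and 823 CPM treated (log2 fold change 0.43, adjusted p = 0.0688).

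The untreated libraries were less alike than the treated ones. The chi-square of their counts over its degrees of freedom was 34.0, and that of the treated pair 4.55. Untreated replicate 2 lay on the treated side of untreated replicate 1 in 5103 of the 5467 genes that rose and in 5287 of the 5920 that fell. Of the myeloid markers, 3 of 5 tested rose (60%, beside 34.4% of all genes). Their summed level over 6 genes was 0.539 CPM in untreated replicate 1, 29.7 CPM in untreated replicate 2, and 142 and 147 CPM after treatment. Summed B-cell markers (3 genes with a row) went from 41.5 and 51.5 CPM to 97.6 and 107 CPM, nearly all of it CD79A. Erythroid and megakaryocyte markers (2 genes) summed to 0.539 and 0.889 CPM untreated and 8.34 and 8.04 CPM treated, fibroblast markers (3 genes) to 2.24 and 2.52 against 9.19 and 9.06 CPM, and epithelial markers (2 genes) to under 1 CPM in every library. ELANE, a defining neutrophil gene, was at 0 in both untreated libraries, and no marker with a row was at 0 in all 4. The part of these markers and of untreated replicate 2 in the Rab results was not tested. Whether untreated replicate 2 holds some RNA or reads of treated cells was not tested either. That doubt applies to every fold change given with all 4 libraries. Log2 fold changes without this library are given for some members only, and not for the lists of genes that act on or with Rabs. In the bulk libraries, fewer cells of a type and less RNA per cell cannot be told apart.

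In the Rab family as a whole, transcripts moved in both directions in nearly equal number. After GNE987, 20 members rose and 22 fell at an adjusted p of 0.05 (edgeR's quasi-likelihood test, Benjamini-Hochberg adjustment over all genes tested), and 9 did not pass. These 42 of 51 are 82.4% of the members tested, beside 71.6% of all genes, with 34.4% of all genes higher and 37.2% lower. A change of at least 2-fold was found in 12 members that rose and 12 that fell, 47.1% of the members tested beside 52.2% of all genes (24.6% higher and 27.6% lower). The library values of the 2 groups did not overlap in 46 members, or 90.2%, beside 91.1% of all genes. The median log2 fold change was 0.02 over the members and -0.03 over all genes tested.

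The response was therefore spread on both sides of 0, as the plot of log2 fold changes of all tested members shows. Scaling by library size alone moved the median of all genes to -0.41 and that of the members to -0.36, and then 16 members rose and 23 fell. Upper-quartile scaling gave 21 that rose and 17 that fell. In the fit without GNE987 replicate 1 only 19 members passed, and without GNE987 replicate 2 only 22 did, since the spread was then that of the untreated pair. In the fits without an untreated library the spread was that of the closer treated pair, so passing there was easier. No member that passed reversed its direction under any of the 12 alternatives, and 17 passed under each alternative in which they were tested.

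**Figure D1:**
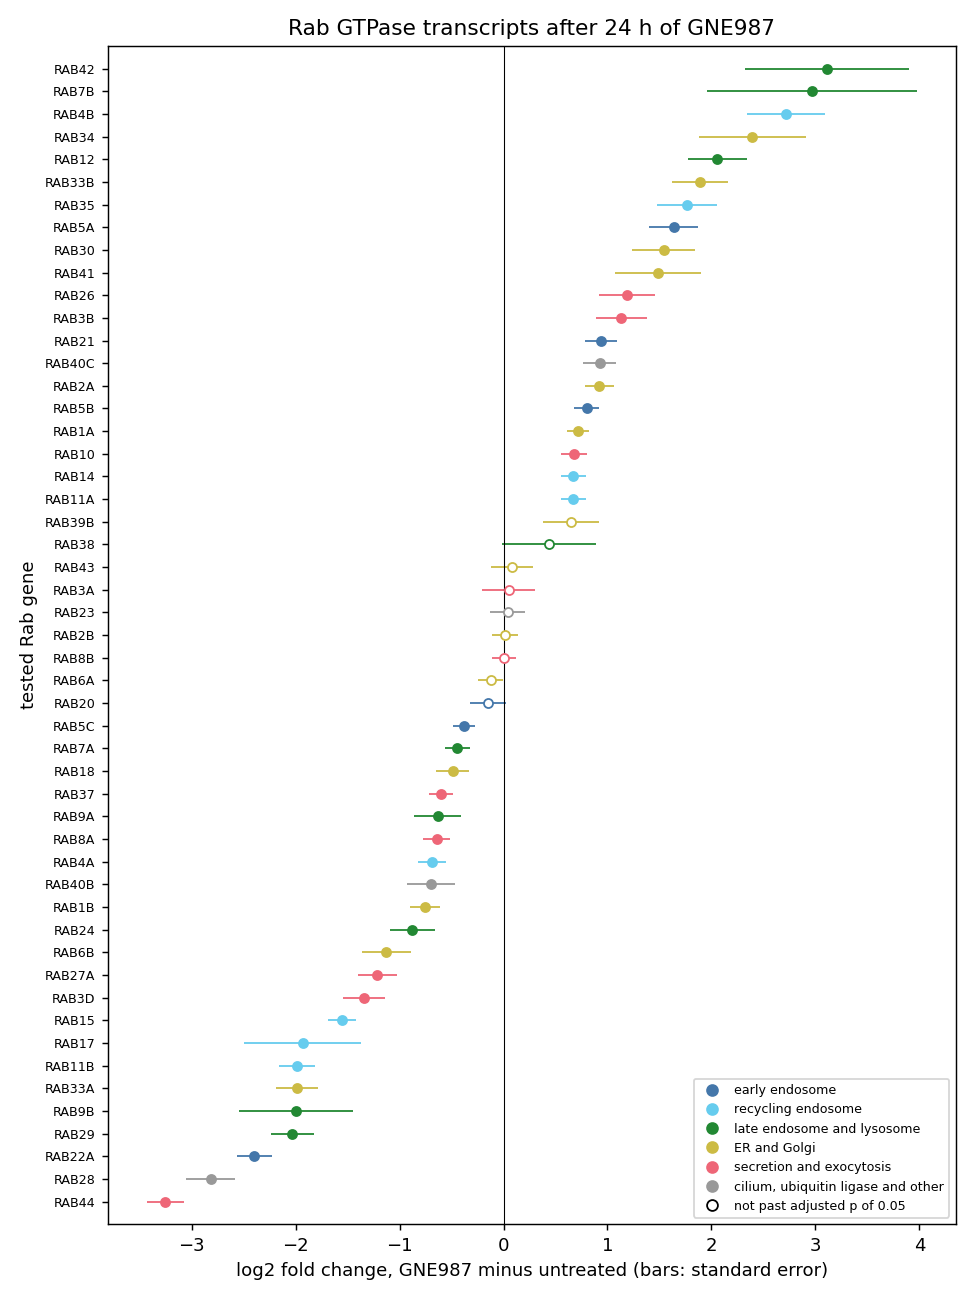
Log2 fold change of each tested Rab gene, GNE987 minus untreated, with bars of 1 standard error and colours by the compartment of the protein; open circles did not pass an adjusted p of 0.05. The 51 members run from RAB44 at -3.25 to RAB42 at 3.11, with 20 that rose and 22 that fell.

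Of the 51 tested, 46 had enough counts in both groups to be kept by either one. Among these, 17 rose and 20 fell, 80.4% beside 72.4% of all genes so kept. RAB7B, RAB34 and RAB42 were kept only through the treated group and RAB9B and RAB17 only through the untreated group, so a difference in these 5 follows from the filter. The 7 members not kept were RAB25, RAB27B, RAB31, RAB36, RAB40A, RAB6C and RAB6D, each with 0 to 13 counts per library. A level of 3 counts corresponds to 0.158 to 0.187 CPM (by the total count), and a change in these genes was not detectable. The 9 tested members that did not pass were RAB2B, RAB3A, RAB6A, RAB8B, RAB20, RAB23, RAB38, RAB39B and RAB43, and the library values of the groups overlapped in 5 of them.

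The early endosome Rabs, which admit internalised cargo to sorting, moved in both directions. Of 6 tested, RAB5A, RAB5B and RAB21 rose, RAB22A and RAB5C fell, and RAB20 did not pass. The share that passed was 83.3%, beside 71.6% of all genes. RAB5A, which drives fusion of endocytic vesicles with early endosomes, lies at chr3:19947079-19985175 (GRCh38). It had 27.2 and 42.5 CPM in the untreated libraries and 115 and 101 CPM in the treated ones, both treated libraries lying far above both untreated ones. Its log2 fold change was 1.64 ± 0.23 (standard error, n = 2 libraries per group, as throughout; adjusted p = 0.0027), and 1.28 without untreated replicate 1 and 2.00 without untreated replicate 2. RAB5B, a close paralogue, had 54.4 and 62.3 CPM untreated and 104 and 98.8 CPM treated (0.80 ± 0.12, adjusted p = 0.00342). RAB5C, the remaining paralogue, had 49.97 and 49.5 CPM untreated and 38.1 and 38.4 CPM treated (-0.38 ± 0.11, adjusted p = 0.0245). Although its groups did not overlap, the call for RAB5C ended with RLE scaling (adjusted p = 0.0581), upper-quartile scaling (0.195), the filter at 10 CPM (0.106), the replicate block (0.0591), without either treated library (0.171 and 0.153) and with DESeq2's Wald test (0.104). The call for RAB5B ended without GNE987 replicate 1 (adjusted p = 0.0523).

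RAB22A, which acts between early endosomes and the recycling tubules, had the largest fall of the group. It went from 25.0 and 25.0 CPM to 4.33 and 5.15 CPM (-2.40 ± 0.17, adjusted p = 0.000376), the untreated pair nearly identical and both treated libraries far below it. RAB21, which carries integrins inward, had 36.6 and 44.6 CPM untreated and 83.6 and 71.9 CPM treated (0.94 ± 0.15, adjusted p = 0.00391). RAB20 had 11.3 and 10.7 CPM untreated and 10.4 and 9.42 CPM treated (-0.15, adjusted p = 0.46).

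The promoters of RAB5A and RAB5C are shown because these paralogues moved in opposite directions. Each is 300 bases from RefSeq on GRCh38.p14, 250 before the annotated start and 50 from it, read 5′ to 3′ on the gene's strand: RAB5A at chr3:19946847-19947146 (plus strand) and RAB5C at chr17:42154940-42155239 (minus strand). Capitals mark matches, on either strand, to any of the 8 motifs named after the recycling Rabs, and overlapping matches run together.
RAB5A: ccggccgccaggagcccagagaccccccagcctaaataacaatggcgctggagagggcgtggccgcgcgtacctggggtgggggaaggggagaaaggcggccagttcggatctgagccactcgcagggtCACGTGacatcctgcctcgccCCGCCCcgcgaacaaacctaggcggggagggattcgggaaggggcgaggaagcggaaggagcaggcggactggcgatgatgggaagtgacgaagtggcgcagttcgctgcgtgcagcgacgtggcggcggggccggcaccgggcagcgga
RAB5C: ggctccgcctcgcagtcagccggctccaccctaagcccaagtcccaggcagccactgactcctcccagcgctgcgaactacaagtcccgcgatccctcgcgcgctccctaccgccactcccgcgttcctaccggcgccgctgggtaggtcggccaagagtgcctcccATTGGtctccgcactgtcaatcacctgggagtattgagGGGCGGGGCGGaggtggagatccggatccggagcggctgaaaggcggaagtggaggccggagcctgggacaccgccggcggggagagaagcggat
RAB5A held an E-box, CACGTG, starting at -121 from the start site and 1 GC box (the letters GGGCGG or their complement). RAB5C held 2 overlapping GC boxes and 1 CCAAT box, and no E-box with these letters.

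All 8 tested Rabs of the recycling endosome, which returns receptors to the surface, passed the test, 4 higher and 4 lower, beside 71.6% of all genes. The 8 include RAB17, which the filter kept only through the untreated group. With 1 library left out, 4 to 8 of them passed. RAB35 (chr12:120095095-120117502), a Rab of the fast recycling route that is also needed for T-cell receptor return to the synapse, had 67.9 CPM in untreated replicate 1, 122 CPM in untreated replicate 2, and 305 and 339 CPM in the treated libraries. The treated libraries stood well above both untreated ones, which themselves differed by 1.79-fold. Its log2 fold change was 1.76 ± 0.29 (adjusted p = 0.00409), and 1.34 without untreated replicate 1 and 2.26 without untreated replicate 2.

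RAB11A and RAB11B, both of the slow recycling route through the perinuclear compartment, parted. RAB11A (chr15:65726054-65891991) had 107 and 114 CPM untreated and 177 and 175 CPM treated (0.67 ± 0.12, adjusted p = 0.00476). RAB11B (chr19:8389981-8404434) had 65.8 and 54.8 CPM untreated and 13.7 and 16.8 CPM treated (-1.98 ± 0.17, adjusted p = 0.00058). The libraries of the groups did not overlap for either gene. The call for RAB11A ended with library size alone (adjusted p = 0.0769) and without either treated library (0.0713 and 0.0695), while that for RAB11B passed under every alternative.

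Of the other recycling Rabs, RAB15, a Rab that slows endocytic recycling, went from 63.0 and 55.7 CPM to 21.2 and 19.2 CPM (-1.55 ± 0.13, adjusted p = 0.000583). RAB14, which works between the Golgi and endosomes, had 51.6 and 57.3 CPM untreated and 89.2 and 84.3 CPM treated (adjusted p = 0.00489). The call for RAB14 ended with library size alone (adjusted p = 0.0818) and without either treated library (0.0714 and 0.0562). RAB4A, a Rab of rapid return to the surface, had 22.7 and 22.5 CPM untreated and 13.8 and 14.3 CPM treated (-0.69 ± 0.13, adjusted p = 0.00664), a call that ended without either treated library (0.0664 and 0.0578). Its paralogue RAB4B was scarce in untreated cells, at 0.494 and 0.741 CPM, and reached 3.94 and 4.20 CPM with treatment (2.71 ± 0.38, adjusted p = 0.00248). RAB17, an epithelial Rab, had 43 and 20 counts untreated and 6 and 5 treated (-1.93, adjusted p = 0.0263), and the filter kept it only through the untreated group. Its call ended with DESeq2 (adjusted p = 0.0876), the replicate block (0.0607), without either treated library (0.122 and 0.13) and without untreated replicate 1 (0.116). RAB4B shared 39.8% of its 50-base words with other annotated genes, chiefly the read-through gene RAB4B-EGLN2, so its reads cannot be assigned to it alone.

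The promoters of RAB35, RAB11A and RAB11B follow, since RAB35 became the most abundant member and the RAB11 genes moved apart. They lie on GRCh38.p14 at chr12:120116704-120117003 (minus strand), chr15:65869241-65869540 (plus strand) and chr19:8390110-8390409 (plus strand), from RefSeq and marked in the same way. Each of these windows lies within the GENCODE span of its gene.
RAB35: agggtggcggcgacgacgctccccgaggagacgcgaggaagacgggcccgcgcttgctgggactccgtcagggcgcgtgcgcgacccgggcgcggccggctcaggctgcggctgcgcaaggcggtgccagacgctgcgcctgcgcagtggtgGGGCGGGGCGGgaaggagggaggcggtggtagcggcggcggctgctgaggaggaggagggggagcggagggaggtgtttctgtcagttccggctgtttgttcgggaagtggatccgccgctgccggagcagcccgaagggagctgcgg
RAB11A: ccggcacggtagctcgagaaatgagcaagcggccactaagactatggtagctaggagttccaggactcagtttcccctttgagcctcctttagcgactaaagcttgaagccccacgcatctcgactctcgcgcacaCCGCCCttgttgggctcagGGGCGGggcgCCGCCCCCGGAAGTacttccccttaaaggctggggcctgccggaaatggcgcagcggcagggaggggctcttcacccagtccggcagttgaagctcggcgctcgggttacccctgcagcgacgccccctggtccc
RAB11B: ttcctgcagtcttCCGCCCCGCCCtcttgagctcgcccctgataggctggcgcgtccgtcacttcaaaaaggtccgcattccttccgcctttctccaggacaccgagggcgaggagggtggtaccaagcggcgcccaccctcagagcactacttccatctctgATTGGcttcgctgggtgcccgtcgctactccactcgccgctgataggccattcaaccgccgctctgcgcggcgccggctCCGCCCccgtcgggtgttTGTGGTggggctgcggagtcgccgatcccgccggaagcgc
RAB35 held 2 GC boxes that overlap by a base and no other motif searched. RAB11A held 3 GC boxes and 1 ETS motif, and RAB11B held 3 GC boxes, 1 CCAAT box and 1 RUNX motif.

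The 8 motifs, searched on both strands, were the E-box CACGTG, the CRE TGACGTCA, the GC box GGGCGG, the CCAAT box CCAAT, the TATA box TATAAA, the ETS motif ACTTCCGG, the GATA motif AGATAA and the RUNX motif TGTGGT. RefSeq windows matched 45 of the 58 members by symbol and gave 65 windows, among 35116 windows of all genes. A GC box was in 73.8% of the members' windows and in 45.0% of all windows. The members' windows were also richer in G and C, with a median of 64.0% against 58.7%. An E-box was in 9.23% of the members' windows (7.26% of all), a CCAAT box in 33.8% (34.6%), an ETS motif in 6.15% (4.14%), a RUNX motif in 10.8% (13.1%) and a TATA box in 9.23% (11.5%). For the GATA and CRE motifs the shares were 7.69% (10.3%) and 1.54% (1.85%). Windows of members that rose (23, from 15 genes) held a CCAAT box in 52.2% and a RUNX motif in 4.35%, and those of members that fell (23, from 18 genes) in 21.7% and 21.7%. These are counts of letters in few windows, several from the same gene, and were not tested.

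Late endosome and lysosome Rabs had 3 members that rose and 5 that fell among 9 tested (88.9%, beside 71.6% of all genes). The rises include RAB7B and RAB42, kept only through the treated group, and the falls RAB9B, kept only through the untreated group. Part of this share therefore follows from the filter. RAB7A, which governs fusion of late endosomes with lysosomes, had 204 and 193 CPM untreated and 141 and 150 CPM treated (-0.45 ± 0.12, adjusted p = 0.0204). Both treated libraries lay below both untreated ones. Its call ended with upper-quartile scaling (adjusted p = 0.129), the filter at 10 CPM (0.0668) and without either treated library (0.19 and 0.129). RAB29, a Golgi and lysosome Rab that recruits the kinase LRRK2, went from 29.002 and 22.7 CPM to 6.96 and 5.65 CPM (-2.03 ± 0.21, adjusted p = 0.000944). RAB12, which sends transferrin receptor to lysosomes, had 8.35 and 15.01 CPM untreated and 48.4 and 48.6 CPM treated (2.06 ± 0.28, adjusted p = 0.00245). The treated libraries of RAB12 agreed closely and the untreated ones differed by 1.80-fold, and the log2 fold change was 1.63 without untreated replicate 1 and 2.55 without untreated replicate 2.

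The remaining late endosome members were less abundant. RAB9A, which returns mannose 6-phosphate receptors to the Golgi, fell (-0.63, adjusted p = 0.0485), as did its paralogue RAB9B (-1.996, adjusted p = 0.0217; kept by the filter only through the untreated group) and RAB24, linked to autophagy (-0.88, adjusted p = 0.0148). All 3 lost the call without GNE987 replicate 1 (adjusted p = 0.0709, 0.121 and 0.0621), and RAB9A and RAB24 also without GNE987 replicate 2 (0.207 and 0.0911). RAB9A also lost it with RLE (0.0759) and upper-quartile scaling (0.129), the 10 CPM filter (0.105), DESeq2 (0.155) and the replicate block (0.0718), and RAB9B with the replicate block (0.0616). RAB38, of melanosomes and related organelles, had 0.673 and 0.543 CPM untreated and 0.788 and 0.870 CPM treated (0.44, adjusted p = 0.416). RAB24 shared 38.2% of its 50-base words with other genes, chiefly the overlapping MXD3, whose mean went the other way, from 63.2 to 322 CPM. RAB7B had 0 and 8 counts untreated and 29 and 16 treated (2.97 ± 1.01, adjusted p = 0.0421), and RAB42 had 1 and 10 counts untreated and 33 and 34 treated (3.11 ± 0.79, adjusted p = 0.0166). The filter kept both only through the treated group. Both estimates turned on untreated replicate 2: without it the log2 fold change was 7.73 for RAB7B and 5.48 for RAB42, and without untreated replicate 1 it was 1.88 and 2.15. The call for RAB7B ended with DESeq2's Wald test (adjusted p = 0.0803), the replicate block (0.1) and without either treated library (0.248 and 0.141), and that for RAB42 without either treated library (0.0936 and 0.108).

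Among the Rabs of the endoplasmic reticulum and Golgi, 6 rose and 4 fell of 14 tested (71.4%, close to the 71.6% of all genes). RAB1A and RAB1B, near-identical proteins needed for transport from the endoplasmic reticulum to the Golgi, moved apart. RAB1A had 57.4 and 60.8 CPM untreated and 96.2 and 97.8 CPM treated (0.72 ± 0.11, adjusted p = 0.00323), and RAB1B had 142 and 131 CPM untreated and 73.3 and 89.0 CPM treated (-0.75 ± 0.14, adjusted p = 0.00628). Library values did not overlap in either gene, and RAB1B, the higher of the pair in untreated cells on the FPKM scale, was the one that fell. The calls ended for RAB1A without GNE987 replicate 2 (adjusted p = 0.0546) and for RAB1B without GNE987 replicate 1 (0.0827). RAB1B shared 34.0% of its 50-base words with another gene, chiefly the antisense gene AP001107.2, and the library kit does not mark the strand. RAB1A shared 18.1%, chiefly with CEP68 on the opposite strand, which overlaps 22.9% of its exon bases. The mean of CEP68 also rose, from 14.9 CPM untreated to 28.5 CPM treated. Whether CEP68 reads enter the RAB1A counts, and so the RAB1A rise, was not tested.

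RAB33A and RAB33B also parted. RAB33A, best known from brain and lymphoid cells, had 18.9 and 15.6 CPM untreated and 4.20 and 4.49 CPM treated (-1.99 ± 0.20, adjusted p = 0.000898). RAB33B, a Golgi Rab that binds the autophagy protein ATG16L1, had 8.66 and 14.9 CPM untreated and 46.0 and 41.3 CPM treated (1.89 ± 0.27, adjusted p = 0.00269). Every treated library was below both untreated ones for RAB33A and above both for RAB33B.

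RAB30, a Golgi Rab, had 5.61 and 10.3 CPM untreated and 23.8 and 22.5 CPM treated (1.54 ± 0.30, adjusted p = 0.00698). It had the largest ratio between the untreated libraries, 1.84, and its call ended without GNE987 replicate 1 (adjusted p = 0.0529). RAB2A, of the early secretory route, rose from 46.3 and 57.0 CPM to 101 and 94.7 CPM (0.92, adjusted p = 0.00339), whereas its paralogue RAB2B had 34.97 and 32.7 CPM untreated and 36.3 and 32.1 CPM treated (0.02, adjusted p = 0.915). RAB6A, of transport within and back from the Golgi, had 67.3 and 62.0 CPM untreated and 56.7 and 62.2 CPM treated (-0.12, adjusted p = 0.381), with overlapping groups. With library size alone RAB6A passed at -0.50 (adjusted p = 0.0186). RAB6B, its mainly neuronal paralogue, fell (-1.13, adjusted p = 0.00886), as did RAB18, of lipid droplets and the endoplasmic reticulum (-0.49, adjusted p = 0.0379). RAB6B shared 6.34% of its exon bases with SRPRB on the opposite strand, whose mean also fell, from 99.0 to 10.9 CPM. Whether SRPRB reads enter the RAB6B counts was not tested. Without GNE987 replicate 1 or 2 the adjusted p was 0.0583 and 0.0562 for RAB6B and 0.0711 and 0.225 for RAB18. RAB18 also missed the threshold with RLE (0.0697) and upper-quartile scaling (0.149), the 10 CPM filter (0.121) and DESeq2 (0.125).

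RAB34, which positions lysosomes and takes part in cilium formation, rose from 0.314 and 0.593 CPM to 2.95 and 1.81 CPM (2.39 ± 0.52, adjusted p = 0.00968). The filter kept it only through the treated group, so that it had to differ, and its call ended without GNE987 replicate 1 (0.0953). RAB41 rose from 0.539 and 0.790 CPM to 1.77 and 1.96 CPM (1.48 ± 0.41, adjusted p = 0.0226). The call for RAB41 ended with library size alone (0.0562), DESeq2 (0.0562), the replicate block (0.0668), without either treated library (0.113 and 0.142) and without untreated replicate 1 (0.0522). RAB39B, linked to autophagy and to early-onset parkinsonism, had 5.61 and 7.41 CPM untreated and 11.9 and 8.48 CPM treated, and did not pass (0.65, adjusted p = 0.0737). It passed with RLE scaling (0.0495), upper-quartile scaling (0.0301) and without untreated replicate 2 (0.000283). RAB43, of the Golgi, had 6.96 and 6.81 CPM untreated and 7.48 and 7.10 CPM treated (0.08, adjusted p = 0.726).

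Of the 10 tested Rabs of secretion and exocytosis, 3 rose and 5 fell (80%, beside 71.6% of all genes). RAB44 (chr6:36697810-36733183), a large atypical Rab of haematopoietic cells with an EF-hand, had the largest fall of all members. It went from 48.1 and 47.0 CPM to 4.27 and 5.73 CPM (-3.25 ± 0.18, adjusted p = 0.000295), and the value stayed between -3.07 and -3.50 with any 1 library left out. RAB27A, which docks lytic granules in killer T cells, had 24.0 and 18.6 CPM untreated and 9.52 and 8.84 CPM treated (-1.21 ± 0.19, adjusted p = 0.00335). RAB3D, of secretory granules, had 19.8 and 16.3 CPM untreated and 7.94 and 6.30 CPM treated (-1.34 ± 0.21, adjusted p = 0.00329). These 3 fell under each alternative run.

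RAB3B, a paralogue of RAB3D, rose from a low level, from 3.37 and 4.05 CPM to 8.60 and 7.68 CPM (1.13 ± 0.24, adjusted p = 0.00932), and its call ended without either treated library (0.0732 and 0.0524). RAB3A, the synaptic vesicle member, had 6.15 and 4.69 CPM untreated and 5.58 and 5.65 CPM treated (0.05, adjusted p = 0.868), with overlapping groups. RAB10, which carries secretory vesicles to the plasma membrane, had 116 and 131 CPM untreated and 199 and 196 CPM treated (0.68 ± 0.13, adjusted p = 0.00602). The call for RAB10 ended with library size alone (adjusted p = 0.0741) and without either treated library (0.0788 and 0.0743). RAB26, of secretory granules, had 7.99 and 13.0 CPM untreated and 21.4 and 26.5 CPM treated (1.19 ± 0.27, adjusted p = 0.0115), a call that ended without GNE987 replicate 2 (0.0871). RAB8A, of polarised secretion and cilia, fell (-0.64, adjusted p = 0.00704), as did RAB37, of granule release (-0.60, adjusted p = 0.00694). RAB8A shared 3.99% of its exon bases with HSH2D, whose mean also fell, from 44.3 to 1.99 CPM. Without GNE987 replicate 1 or 2 the adjusted p was 0.0866 and 0.056 for RAB8A and 0.0682 and 0.0816 for RAB37. RAB8B, paralogue of RAB8A, had 53.6 and 51.6 CPM untreated and 55.6 and 49.9 CPM treated (0.01, adjusted p = 0.969).

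The last 4 tested members have other roles, and 1 rose and 2 fell (75%, beside 71.6% of all genes). RAB28 (chr4:13361354-13484365), a farnesylated Rab of the cilium, went from 24.9 and 19.0 CPM to 2.76 and 3.48 CPM (-2.82 ± 0.24, adjusted p = 0.000551), the second largest fall. RAB40B and RAB40C, which carry a SOCS box that joins them to a cullin ubiquitin ligase, moved apart. RAB40C had 34.3 and 44.5 CPM untreated and 75.3 and 74.1 CPM treated (0.92 ± 0.16, adjusted p = 0.00444), and RAB40B had 7.497 and 6.96 CPM untreated and 4.79 and 4.13 CPM treated (-0.69 ± 0.23, adjusted p = 0.0399). The call for RAB40B ended with RLE scaling (adjusted p = 0.0609), upper-quartile scaling (0.104), DESeq2's Wald test (0.137), the replicate block (0.0761) and without either treated library (0.103 and 0.168). RAB23, a brake on hedgehog signalling, had 10.5 and 10.6 CPM untreated and 11.2 and 10.5 CPM treated (0.04, adjusted p = 0.837). It shared 57.3% of its 50-base words with other genes, chiefly BAG2 on the opposite strand, whose mean went from 46.7 to 11.95 CPM.

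**Figure D2:**
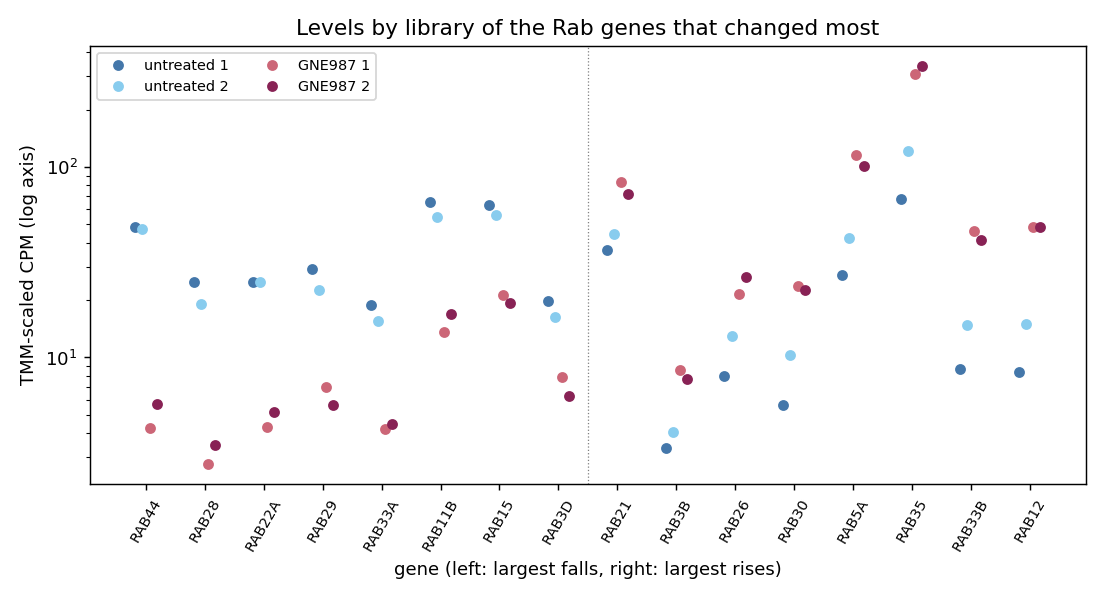
TMM-scaled CPM on a log axis of the 8 largest falls (left) and 8 largest rises (right) among Rab genes that average 5 CPM or more, 1 point per library. In each gene the treated points lie on one side of both untreated points, and for the rises untreated replicate 2 sits between untreated replicate 1 and the treated libraries.

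The position of untreated replicate 2 was the same across the members. It lay above untreated replicate 1 in 20 of the 20 members that rose, beside 5103 of the 5467 genes that rose. It lay below untreated replicate 1 in 22 of the 22 members that fell, beside 5287 of the 5920 genes that fell. In some members that fell the difference was small, with a ratio of 0.999 for RAB22A and 0.990 for RAB5C. The plot of the largest changes shows the values by library. RAB30, RAB12 and RAB35 had the largest ratios of untreated replicate 2 to replicate 1, at 1.84, 1.80 and 1.79. Without untreated replicate 2, the plotted rises had log2 fold changes of 2.55 (RAB12), 2.34 (RAB33B), 2.26 (RAB35), 2.05 (RAB30) and 2.00 (RAB5A). RAB26, RAB3B and RAB21 were then at 1.59, 1.28 and 1.10. The plotted falls were then at -3.26 (RAB44), -2.99 (RAB28), -2.39 (RAB22A), -2.19 (RAB29), -2.11 (RAB33A), -2.10 (RAB11B), -1.63 (RAB15) and -1.46 (RAB3D). In fits without an untreated library the spread came from the treated pair alone, so calls kept there say little about stability.

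Per length, the order of the members changed at the top. On the deposited FPKM scale (size-factor-normalised reads per kilobase), the most abundant members of untreated cells were RAB7A at 72.2 ± 4.34 (SD, n = 2), RAB1B at 67.4 ± 5.09, RAB10 at 33.5 ± 2.32, RAB11B at 24.1 ± 3.59, RAB35 at 23.2 ± 8.90 and RAB11A at 19.2 ± 0.539 FPKM. RAB35 did not differ from RAB11B or RAB11A beyond its spread, nor RAB7A from RAB1B. After treatment the order was RAB35 at 79.2 ± 6.05, RAB10 at 53.8 ± 0.450, RAB7A at 53.0 ± 2.48, RAB1B at 39.9 ± 5.58 and RAB11A at 30.6 ± 0.118 FPKM, with RAB10 and RAB7A inseparable. RAB11B stood at 6.09 ± 0.909 FPKM after treatment. RAB35, the fifth by its untreated mean, was the first member in both treated libraries.

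The summed FPKM of the 58 members was 503 and 494 in the untreated libraries and 541 and 552 in the treated ones, a ratio of 1.10. Divided by the library total instead, the same sum per length was 591 and 558 untreated and 491 and 479 treated, a ratio of 0.845, so the direction of the family's total depends on the scaling. As a share of all counts, the members held 0.208% and 0.201% untreated and 0.194% and 0.186% treated.

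In several subfamilies the paralogues parted. Of 12 subfamilies with at least 2 tested members (the same number, another letter), 8 held both a member that rose and one that fell: RAB1, RAB3, RAB4, RAB5, RAB7, RAB11, RAB33 and RAB40. The RAB7 split rests on RAB7B, which the filter kept only through the treated group. With members kept through both groups alone, 7 of 10 subfamilies were split. Of 16 pairs of paralogues 9 moved in opposite directions, or 56.2%, beside 34.5% of all pairs of tested Rabs and 25.6% of all pairs of genes tested. Pairs that share a gene are not independent, and the difference was not tested. With 3 other scalings, 4 of the 8 (RAB1, RAB3, RAB4 and RAB33) held both under each, and only RAB33 did so under all 12 alternatives. These pairs were picked because they moved in opposite directions, so their ratios are given as a description. A ratio of 2 genes within a library does not depend on how libraries are scaled.

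The log2 ratio of RAB33A to RAB33B counts was 1.12 and 0.07 in the untreated libraries and -3.44 and -3.19 in the treated ones, a 15.04-fold change of the ratio and the widest of the pairs without a library at 0. For RAB4A to RAB4B it went from 5.46 and 4.88 to 1.80 and 1.76. For RAB11A to RAB11B it went from 0.70 and 1.06 to 3.69 and 3.38. These ratios differ far more between groups than between the libraries of a group.

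For RAB3B to RAB3D the log2 ratio went from -2.55 and -2.01 to 0.11 and 0.28. The genes differ in length, so only the shift between libraries is read from these ratios, not which gene is the more abundant. RAB5A to RAB5C went from -0.88 and -0.22 to 1.60 and 1.40, and RAB1A to RAB1B from -1.31 and -1.11 to 0.39 and 0.14. In each of these pairs the libraries of the groups did not overlap. RAB40B to RAB40C went from -2.19 and -2.67 to -3.96 and -4.15, and RAB5B to RAB5C from 0.12 and 0.33 to 1.45 and 1.36, the smallest change of the 8 pairs at 2.26-fold. The RAB7 pair is left out because RAB7B had 0 counts in untreated replicate 1.

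As shares of their subfamily's FPKM, RAB11A went from 41.4% and 47.6% to 84.9% and 81.9%, and RAB33B from 10.3% and 19.2% to 73.2% and 69.7%. RAB5A went from 21.4% and 29.1% to 50.7% and 48.1% of the RAB5 sum. RAB1A went from 19.6% and 21.9% to 44.3% and 40.0%, still below RAB1B. In the plot of FPKM by library for the split subfamilies the points of the paralogues cross in RAB5, RAB11 and RAB33, those of RAB3A and RAB3D cross in RAB3, and those of the pair approach each other in RAB1.

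**Figure D3:**
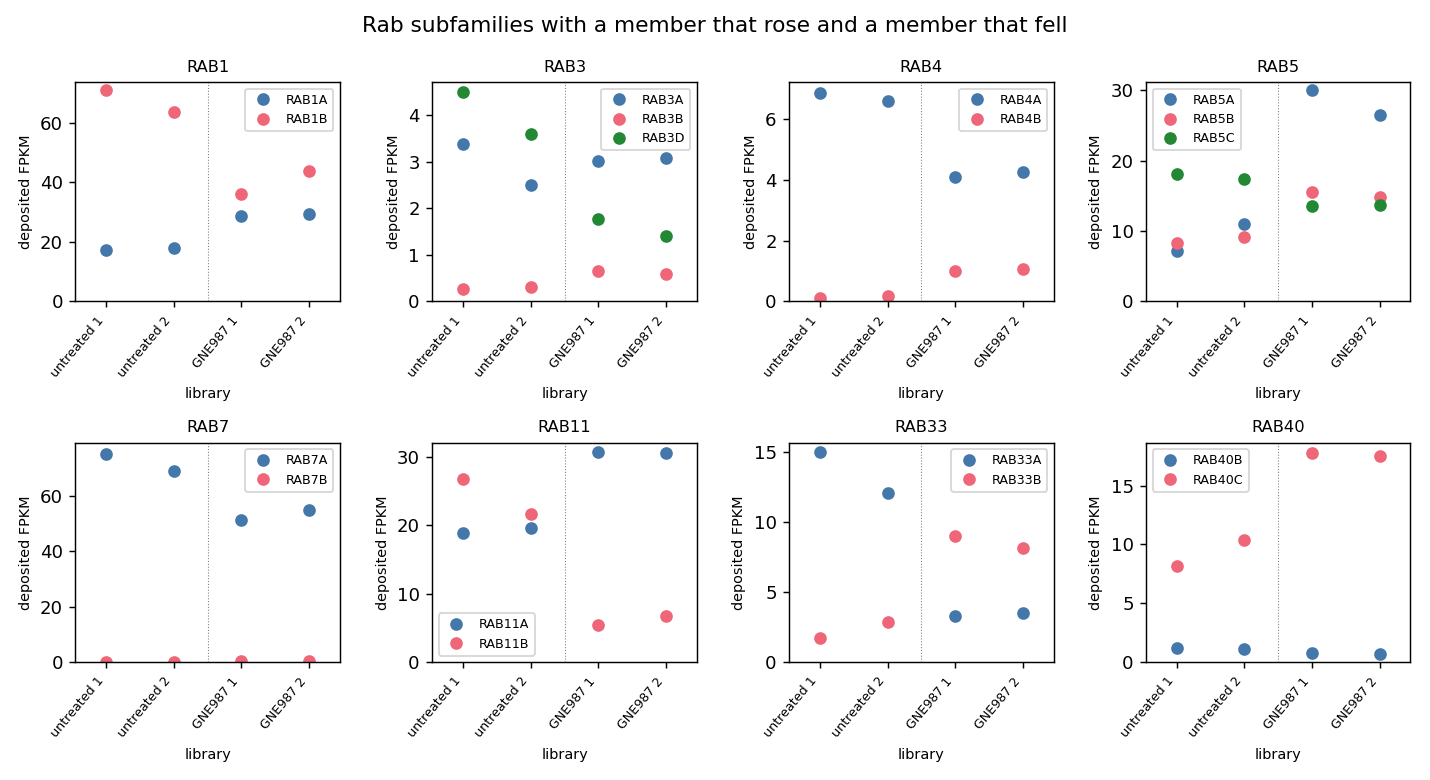
Deposited FPKM of each tested member of the 8 Rab subfamilies with a member that rose and a member that fell, 1 point per library, each panel with its own linear axis from 0. RAB33B passes RAB33A and RAB5A passes RAB5C in the treated libraries, and RAB11A goes from near RAB11B (41.4% and 47.6% of their sum) to well above it (84.9% and 81.9%).

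In the lists of genes that act on or with Rabs, more genes fell than rose. The filter kept some listed genes that fell only through the untreated group, such as DENND5B, TBC1D9 and RPH3AL. It kept GRTP1, which rose, only through the treated group. The lists were not recounted on genes kept through both groups. Of all genes so kept, 40.2% fell and 32.2% rose, with a median of -0.13. Of 46 GEF genes tested, 27 fell (58.7%, beside 37.2% of all genes) and 11 rose (23.9%, beside 34.4%), and the median over the list was -0.66 on the log2 scale, beside 0.02 for the Rabs and -0.03 for all genes. RAB3GAP1, a subunit of the RAB18 exchange factor, went from 23.9 and 19.2 CPM to 3.55 and 3.62 CPM (-2.59 ± 0.20, adjusted p = 0.000451). MON1A, a subunit of the RAB7 exchange factor, went from 33.3 and 26.9 CPM to 6.24 and 7.25 CPM (-2.16 ± 0.18, adjusted p = 0.000558). DENND4B, an exchange factor for RAB10, and RAB3IL1, one for RAB8, had log2 fold changes of -2.67 and -3.20 (adjusted p = 0.000309 and 0.000753). Both treated libraries were below both untreated ones in each of these 4. Among the GEFs that rose, named after their values were seen, MON1B, the paralogue of MON1A, went from 44.0 and 52.0 CPM to 80.5 and 82.0 CPM (0.76 ± 0.13, adjusted p = 0.00449; 0.0533 and 0.0582 without GNE987 replicate 1 or 2). RIC1, of the RAB6 exchange factor, went from 16.6 and 25.4 CPM to 82.6 and 76.8 CPM (1.93 ± 0.22, adjusted p = 0.00147).

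Among 34 GAP genes tested, 18 fell (52.9%, beside 37.2% of all genes) and 9 rose (26.5%, beside 34.4%), with a median of -0.61. TBC1D22B, of the TBC-domain GAP family, went from 30.6 and 23.2 CPM to 1.12 and 0.652 CPM (-4.90 ± 0.31, adjusted p = 0.000317), the largest fall of the 4 named. By the total count, GNE987 replicate 2 lay just under the filter's cutoff for TBC1D22B. The filter thus kept this gene only through the untreated group, so some difference follows from the filter. TBC1D15, a GAP for RAB7, went from 34.7 and 26.2 CPM to 2.43 and 3.33 CPM (-3.40 ± 0.25, adjusted p = 0.000403). TBC1D22A and TBC1D10C, a GAP for RAB35 abundant in lymphocytes, had log2 fold changes of -3.11 and -2.25 (adjusted p = 0.000315 and 0.000309). TBC1D20, a GAP for RAB1 and RAB18 that rose and was named after its values were seen, went from 51.0 and 62.5 CPM to 131 and 124 CPM (1.17 ± 0.14, adjusted p = 0.0017).

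Of 8 tested genes for prenylation and recycling of Rabs, 3 fell (37.5%, close to the 37.2% of all genes). Both subunits of the geranylgeranyl transferase fell: RABGGTA went from 36.9 and 32.6 CPM to 10.1 and 10.1 CPM (-1.78 ± 0.14, adjusted p = 0.000468), and RABGGTB from 117 and 106 CPM to 42.0 and 38.9 CPM (-1.46 ± 0.12, adjusted p = 0.00054). GDI2, which extracts Rabs from membranes, had 329 and 308 CPM untreated and 335 and 337 CPM treated (0.08, adjusted p = 0.598). GGPS1, which makes the geranylgeranyl donor, passed at -0.54 (adjusted p = 0.0319), and its call ended with RLE (0.0573) and upper-quartile scaling (0.128), the 10 CPM filter (0.0854), DESeq2 (0.136), the replicate block (0.0667) and without either treated library (0.159 and 0.102). The escort proteins CHM and CHML and the factor RABAC1 did not pass.

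Among 54 effector genes tested, 28 fell (51.9%, beside 37.2% of all genes) and 16 rose (29.6%, close to the 34.4% of all genes), with a median of -0.48. FYCO1, which links RAB7 to kinesin, went from 19.7 and 16.2 CPM to 0.853 and 1.09 CPM (-4.21 ± 0.26, adjusted p = 0.000309). UNC13D, the partner of RAB27A in granule release, went from 190 and 163 CPM to 40.3 and 44.1 CPM (-2.07 ± 0.14, adjusted p = 0.000355). EXOC6, an exocyst subunit that binds RAB11, and RUFY1, which binds RAB4 and RAB14, had log2 fold changes of -3.46 and -1.81 (adjusted p = 0.000831 and 0.000975). RAB11FIP1, an effector of RAB11 that rose and was named after its values were seen, went from 20.7 and 22.4 CPM to 52.0 and 44.0 CPM (1.16 ± 0.14, adjusted p = 0.0017). RAB27A and its partner UNC13D both fell.

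Of 8 Rab-like genes, 5 fell (62.5%, beside 37.2% of all genes) and 0 rose (beside 34.4%) by edgeR (median -0.85). The share that passed in either direction, also 62.5%, was below the 71.6% of all genes. The count of higher genes was 0 at an unadjusted p under 0.05 and 0 with DESeq2, and 1 with upper-quartile scaling. RABL3 went from 29.9 and 26.5 CPM to 1.64 and 1.45 CPM (-4.18 ± 0.19, adjusted p = 0.000292). IFT22, RABL6 and CRACR2A, a large GTPase of T-cell calcium signalling, had log2 fold changes of -2.74, -1.72 and -1.28 (adjusted p = 0.000522, 0.00103 and 0.00155). Of 4 listed kinases and phosphatases of Rabs only 2 were tested, too few to describe the list, and both fell (beside 37.2% of all genes). PPM1H, which removes the phosphate that LRRK2 adds, went from 94.2 and 75.7 CPM to 4.005 and 4.28 CPM (-4.36 ± 0.18, adjusted p = 0.000292), and TBK1 fell by 3.42 on the log2 scale (adjusted p = 0.000379).

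The balance of the lists moved with the scaling. With library size alone, 29 GEFs fell and 11 rose, 23 GAPs fell and 5 rose, and 34 effectors fell and 9 rose. With upper-quartile scaling the counts were 24 and 16, 17 and 9, and 20 and 16. Genes that fell outnumbered those that rose in each of these 3 lists under both scalings. Counts over all genes are not given for these scalings, so the lists cannot be set against them there. With library size alone the median of all genes also moved down. In the fits without GNE987 replicate 1 or 2, 16 GAPs passed in each, and 20 and 23 effectors.

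**Figure D4:**
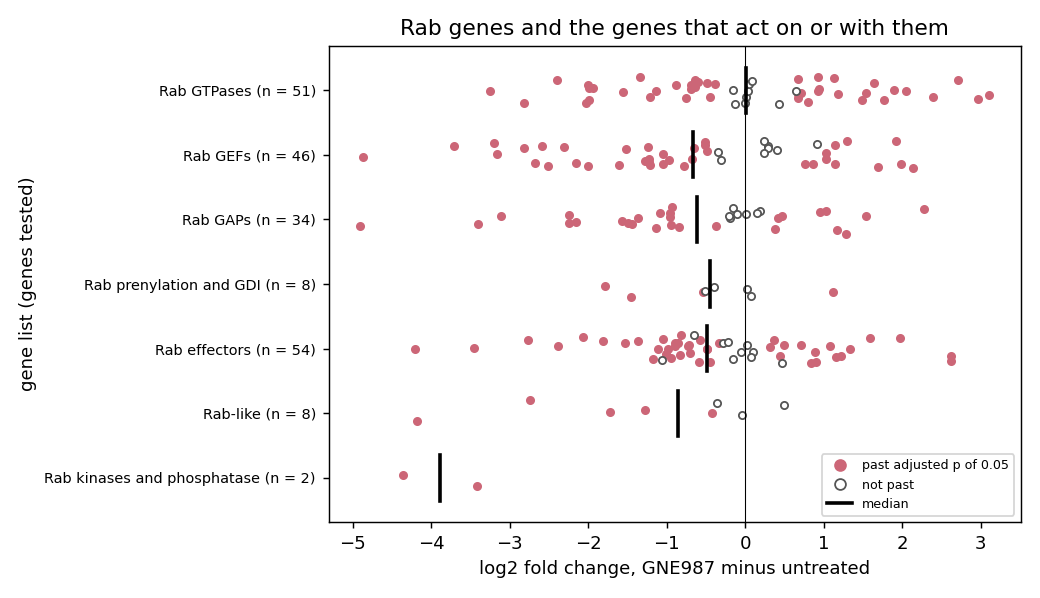
Log2 fold change of each tested gene in the Rab family and in the lists of genes that act on or with Rabs, 1 point per gene; filled points passed an adjusted p of 0.05 and bars mark medians. The Rab median lies at 0.02, with GEFs at -0.66, GAPs at -0.61 and effectors at -0.48.

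Reads of some members cannot be fully told from those of other genes, because the kit does not mark the strand and the counting tool is not given in the sources used here. Of the 51 tested members, 32 shared under 5% of the 50-base words of their GENCODE transcripts with any other gene, and 9 shared over 20%. The highest were RAB43 at 80.0% (with the read-through gene ISY1-RAB43), RAB23 at 57.3%, RAB4B at 39.8%, RAB8A at 39.1%, RAB24 at 38.2% and RAB1B at 34.0%, followed by RAB5C at 24.8%, RAB3D at 21.3% and RAB6A at 20.1%. A gene overlapping exons of RAB1A, RAB6B, RAB8A, RAB27A or RAB40C moved the same way as the member. For RAB11B and RAB24 an overlapping gene moved the other way. The part of shared reads in these changes was not tested. In the authors' deposited table, 18 members were higher and 17 lower at its adjusted p, and all 35 of these were also called here. That table called 37.3% of its 26733 listed genes. These include genes too low to be tested here, so that share is not a like background for the members.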

How the data were processed

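The deposited gene table gave raw counts per gene and library, a normalized signal, FPKM and the authors' comparison. Per the submitters' processing notes, HISAT2 2.2.0 and hg38 were used. The sources used here do not give the counting tool, annotation or strand setting. The deposited signal equalled the count over a library's size factor, within 0.01 of whole counts for 100% of values. The deposited FPKM was proportional to that signal with the same constant in all libraries, so it was scaled by size factors rather than each library's total. From the authors' deposited table, the log2 fold change, p-value and adjusted p-value of each gene served only for a side count, their test being unnamed.

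Low genes were removed by edgeR 4.0.16 (filterByExpr, minimum count 10, minimum total 15), and TMM scaling and its quasi-likelihood F test followed in R 4.3.3 on all 4 libraries, with 2 residual degrees of freedom. Adjusted p-values are Benjamini-Hochberg over the 15910 genes tested, and the threshold was 0.05. A standard error is the log2 fold change divided by the square root of F. The test was checked on simulated data. Reads carry no molecular identifiers, and the floor of 3 counts covers counting error only. Coordinates are those of GENCODE release 29 on GRCh38, and promoters are from RefSeq.

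Members, lists and tests were chosen with earlier results of these data known. Named in full were the 8 largest falls and rises with a mean of at least 5 CPM that moved alike in all 4 treated-untreated pairs, the 6 members of highest mean FPKM, the members of split subfamilies, the 3 members of largest ratio between the untreated libraries, and up to 4 genes per list with the smallest p and a mean of at least 5 CPM. An item under this rule is not reported here. Other members are named with fewer values, chosen after their values were seen. Alternatives were 3 other scalings, 2 other filters, DESeq2 1.42.0, robust estimation, a replicate block and each library left out. With a library left out, the lone sample of its group was taken to vary as the other group does.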

Additional observations from a re-analysis of the deposited data

How the results depend on the processing

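Replicate numbers were not shown to pair the libraries (the correlation of same-numbered deviations was -0.0039). With the replicate block 35 members changed (18 higher, 17 lower), 20 of them at least 2-fold, and 5 late endosome Rabs passed. The members that changed numbered 35 with DESeq2's Wald test, 39 with RLE scaling, 38 with upper-quartile scaling, 39 with library size alone, 42 with no filter, 28 of 37 tested with the 10 CPM filter and 42 with robust estimation. With the 10 CPM filter, 3 late endosome Rabs and 6 of the endoplasmic reticulum and Golgi passed, of fewer genes tested. With 1 library left out the count ran from 19 to 43, and from 15 to 28 for changes of at least 2-fold; the lows came without a treated library. By role these ranges were 3 to 5 (early endosome), 4 to 8 (recycling), 2 to 8 (late endosome), 4 to 11 (endoplasmic reticulum and Golgi) and 3 to 8 (secretion), and by list 16 to 28 (GAPs) and 20 to 46 (effectors). The median log2 fold change of the members was 0.21 with upper-quartile scaling, -0.36 with library size alone, -0.20 with no filter and -0.088 to 0.060 with 1 library left out. The summed level per length changed by a ratio of 0.845 with counts divided by length and library total. Of the members that did not pass, 7 turned sign under an alternative: RAB20 (0.046 with upper-quartile scaling, 0.020 with the 10 CPM filter) and RAB6A (0.076 and 0.048). With library size alone these were at -0.52 (adjusted p = 0.065) and -0.50 (0.0186, past the threshold), and RAB39B passed with RLE (0.0495) and upper-quartile scaling (0.0301) and without untreated replicate 2 (0.000283). With library size alone and with no filter, in that order, RAB8B was at -0.37 and -0.14, RAB2B at -0.36 and -0.13, RAB23 at -0.33 and -0.11, RAB3A at -0.33 and -0.096, and RAB43 at -0.29 and -0.063. With 1 library left out the values ran from -0.088 to 0.060 for RAB8B, from -0.089 to 0.081 for RAB2B, from -0.027 to 0.062 for RAB23 and from -0.12 to 0.19 for RAB3A. The cause was not tested, beyond the construction of each alternative. Members under 1 CPM rest on few counts.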
